A study of Macaca mulatta with 4 samples.

Results

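The caveolae coat genes examined in RF/6A cells were 8 listed symbols, CAV1, CAV2, CAV3, CAVIN1, CAVIN2, CAVIN3, EHD2 and PACSIN2, chosen by name as the known parts of the coat. Of these, 3 had a row in the deposited table of 21314 rhesus Ensembl genes, namely CAV1 (ENSMMUG00000014122), CAVIN2 (ENSMMUG00000011574) and EHD2 (ENSMMUG00000040121). The other 5 matched no row and were not analysed here. For CAV2, CAV3, CAVIN1 and CAVIN3 a current rhesus Ensembl identifier was known but had no row, and for PACSIN2 no identifier was paired with the symbol. Since 6660 rows carry no symbol, these 5 genes count as not measured and nothing follows about their expression.

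RF/6A is a rhesus macaque (Macaca mulatta) line labelled as chorioretinal, and total RNA of the parental line was sequenced in 4 libraries of 1 group, titled static. The cells came from a cell repository and were grown in Dulbecco's medium with heat-inactivated fetal bovine serum, penicillin and streptomycin. No genetic change and no agent is given for any library, and no control cell type or treated group was analysed here. The labels do not say whether the libraries came from separate cultures, so each SD describes the spread between these 4 libraries, which may be technical.

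Caveolae are small flask-shaped pits of the plasma membrane, abundant in endothelial cells, adipocytes, muscle cells and fibroblasts, where they take part in transport, lipid handling and buffering of membrane tension. Caveolins insert into the inner leaflet of the membrane as oligomers, and CAV1 is the caveolin required for caveolae outside striated muscle, where CAV3 takes that place. Cavins form a peripheral coat around the bulb, of which CAVIN1 is required for caveola formation and CAVIN2 and CAVIN3 are cell-type dependent partners. EHD2, a membrane-binding ATPase, forms rings at the neck that hold caveolae at the surface, and PACSIN2, an F-BAR protein, helps to shape the neck.

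The 4 libraries held between 20366946 and 20550610 estimated counts each. Library 2 stood apart in composition. Over genes averaging 1 counts-per-million (CPM) or more, Pearson's r between libraries on log2(CPM + 0.5) was 0.80 to 0.83 for the pairs that include library 2 and 0.98 to 0.99 for the rest (genes are not independent replicates). The coat genes are therefore given with and without library 2, and other genes by library where it differed. As a check of the cell label, 1 of 6 endothelial markers (PECAM1) was expressed, and their summed level was between 4.69 and 6.07 CPM in the 4 libraries. Expressed means at least 1 CPM in every library, as 64.3% of all rows with a count were. All 6 fibroblast markers were expressed, with a summed level of 22591 to 24693 CPM in libraries 1, 3 and 4 and 32213 CPM in library 2. COL1A1 made up 16445 CPM of that library 2 sum, whereas COL3A1, PDGFRB, DCN and LUM were lowest there, and the list median of log2(CPM + 0.5) was 10.16 in library 2 and 10.41 to 10.46 in the others.

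All 3 coat genes with a row were expressed, meaning at least 1 CPM in every library after scaling by the trimmed mean of M-values (TMM). By the same rule 64.3% of the 17534 rows with any count were expressed, and 3 genes are too few to be set apart from that background. The median log2(CPM + 0.5) over the 3 genes was 6.62 ± 1.36 (SD, n = 4), next to 3.13 ± 0.22 over all rows with a count. CAV1 was the middle gene in every library, so this median is the level of CAV1 itself.

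CAV1 measured 146, 23.4, 162 and 163 CPM in libraries 1 to 4. Libraries 1, 3 and 4 lay close together, and library 2 lay far below all of them. In RNA from a whole culture, fewer cells that express a gene, less RNA per cell and a technical difference of the library cannot be told apart. The mean was 124 ± 67.3 CPM (SD, n = 4), and 157 ± 9.40 CPM without library 2 (n = 3, same scaling). The count behind the library 2 value was 380, with an exact 95% Poisson interval of 21.1 to 25.9 CPM, against 141 to 151 CPM for library 1, the lowest of the others. Such intervals cover counting error only.

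CAVIN2, the cavin also known as serum deprivation response protein, measured 5.96, 2.96, 5.89 and 5.70 CPM in libraries 1 to 4. Library 2 was again the lowest, and the other 3 libraries agreed within counting error. The mean was 5.13 ± 1.45 CPM (SD, n = 4), and 5.85 ± 0.135 CPM without library 2 (n = 3). The gene rested on 48 counts in library 2 and on 126 to 131 counts elsewhere. Its exact Poisson interval in library 2 was 2.18 to 3.93 CPM and did not reach the lowest lower limit of the others, 4.75 CPM in library 4.

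EHD2 measured 468, 759.7, 463 and 512 CPM in libraries 1 to 4. Here library 2 was the highest of the 4, opposite to CAV1 and CAVIN2. The mean was 551 ± 141 CPM (SD, n = 4), and 481 ± 27.0 CPM without library 2 (n = 3). Counts of EHD2 were between 10296 and 12315 in every library, so counting error was small next to the difference between libraries. Without scaling, library 2 stayed the highest but no longer lay apart from the other 3 by the gap test described next.

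**Figure D1:**
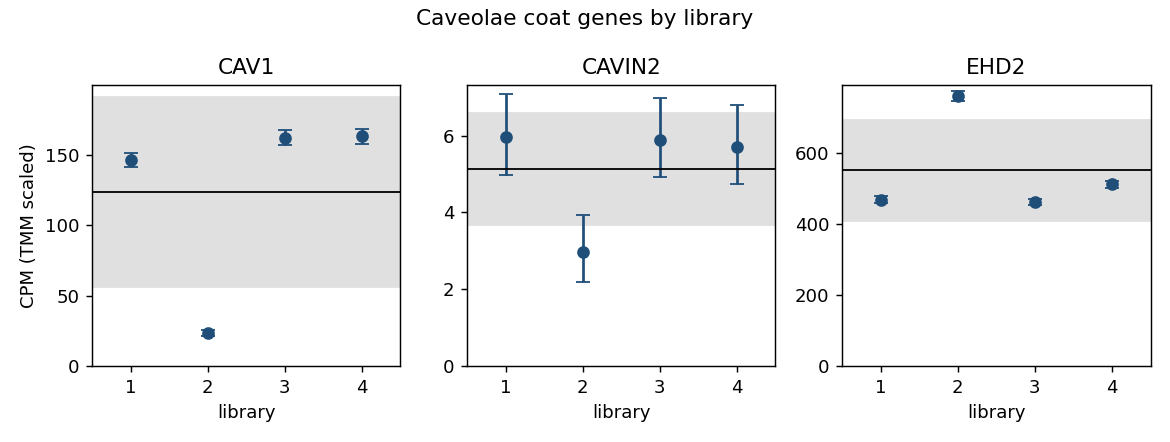
Level of CAV1, CAVIN2 and EHD2 in CPM (TMM scaled, linear axes from 0) in each of the 4 RF/6A libraries, with exact 95% Poisson intervals as bars, the mean as a line and 1 SD as a grey band. Library 2 is the lowest point for CAV1 (23.4 CPM) and CAVIN2 (2.96 CPM) and the highest for EHD2 (759.7 CPM), while libraries 1, 3 and 4 lie together.

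Dixon's gap test asks whether the highest or lowest of 4 libraries lies apart from the rest (at the 95% critical ratio) and calls about 1 in 20 values by chance. On CPM it called library 2 for all 3 coat genes, as the lowest for CAV1 (gap ratio 0.881) and CAVIN2 (0.913) and as the highest for EHD2 (0.834). Library 2 was called as the lowest for 11.2% and as the highest for 21.8% of the 12453 genes that averaged 1 CPM or more. The ratio is the gap over the range in CPM. Equal folds down and up give different gaps in CPM and can be called differently, so these shares do not compare falls and rises of equal fold. The EHD2 ratio lies just past the critical value, and the call was lost on log2(CPM + 0.5) and with unscaled CPM. The calls for CAV1 and CAVIN2 held under each of these settings and with DESeq2 size factors.

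Set against the median of the 4 libraries on log2(CPM + 0.5), library 2 was at -2.69 for CAV1, -0.86 for CAVIN2 and 0.63 for EHD2. The median gene was at -0.042 with TMM and at -0.42 with unscaled CPM. TMM centres most genes by design, so these values do not settle which scaling is right. Relative to the median gene, the CAV1 difference was -2.65 with TMM and -2.71 unscaled, and the EHD2 difference was 0.67 and 0.61. By this measure 4.87% of genes were lower than CAV1 in library 2, 28.3% lower than CAVIN2 and 72.6% lower than EHD2. CAV1 was thus near the low end of all genes, whereas CAVIN2 and EHD2 were well inside the range.

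The spread between libraries was measured by the biological coefficient of variation (BCV) of edgeR, an estimate that is pulled toward the trend over all genes. It is a different measure from a gene's own coefficient of variation (CV, SD over mean) and can exceed it. The CV over the 4 libraries was 54.4% for CAV1, 28.2% for CAVIN2 and 25.6% for EHD2. The BCV was 63.7% for CAV1, 37.0% for CAVIN2 and 35.0% for EHD2, next to a common value of 45.02% over 12301 genes. Of those genes, 92.2% had a lower BCV than CAV1, 44.9% a lower one than CAVIN2 and 37.5% a lower one than EHD2. Without library 2 the BCV was 8.23% for CAV1, 15.1% for CAVIN2 and 7.84% for EHD2, with a common value of 13.6%. The CV over libraries 1, 3 and 4 was 5.99% for CAV1, 2.30% for CAVIN2 and 5.62% for EHD2.

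Ratios within a library do not depend on scaling, and a fixed transcript length cancels from their changes between libraries. A length-dependent bias that differs between libraries would not cancel, and it was not tested. The log2 ratio of EHD2 to CAV1 counts was 1.68, 5.02, 1.51 and 1.65 in libraries 1 to 4. Its mean was 2.47 ± 1.70 (SD, n = 4) and 1.62 ± 0.09 without library 2. The log2 ratio of CAVIN2 to CAV1 was -4.62, -2.98, -4.78 and -4.84 in libraries 1 to 4, or -4.75 ± 0.11 without library 2. These count ratios were thus steady in 3 libraries and different in library 2. Transcript lengths were not used here, so the size of a ratio is not the ratio of molecules, and no gene is said to have more molecules than another. The list medians and the choice of the 3 highest genes of a list rest on CPM, which long transcripts raise. The planned ratios with CAV2, CAVIN1, CAVIN3 and PACSIN2 could not be computed.

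Paralogues of the coat genes outside the 8 were examined next, and 5 of 6 had a row. Of these 5, 3 were expressed, EHD4, EHD1 and PACSIN3, next to 64.3% of all rows with a count. EHD1, an ATPase of recycling endosomes, measured 43.2, 51.8, 40.8 and 46.7 CPM in libraries 1 to 4, with a mean of 45.6 ± 4.75 CPM (SD, n = 4). EHD4, another endosomal member, measured 66.7, 23.5, 68.7 and 68.2 CPM, and library 2 lay apart as the lowest. EHD3 measured 4.19, 0.555, 4.09 and 3.71 CPM and missed the 1 CPM rule through library 2 alone, where it had 9 counts.

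The EHD genes therefore lay on different sides of the other libraries in library 2. EHD2 was highest there, and EHD3 and EHD4 lowest, under each of the 3 scalings. EHD1 was highest with TMM, not far enough to lie apart, and lowest with unscaled CPM (41.1 against 44.3 to 50.3 CPM). The log2 ratio of EHD2 to EHD1 was 3.88 in library 2 and 3.44 to 3.50 in the others, whereas that of EHD2 to EHD4 was 5.01 against 2.75 to 2.91. These are close relatives in sequence, and reads that fit several of them are shared out by estimation, so each level carries an assignment error that the intervals leave out.

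**Figure D2:**
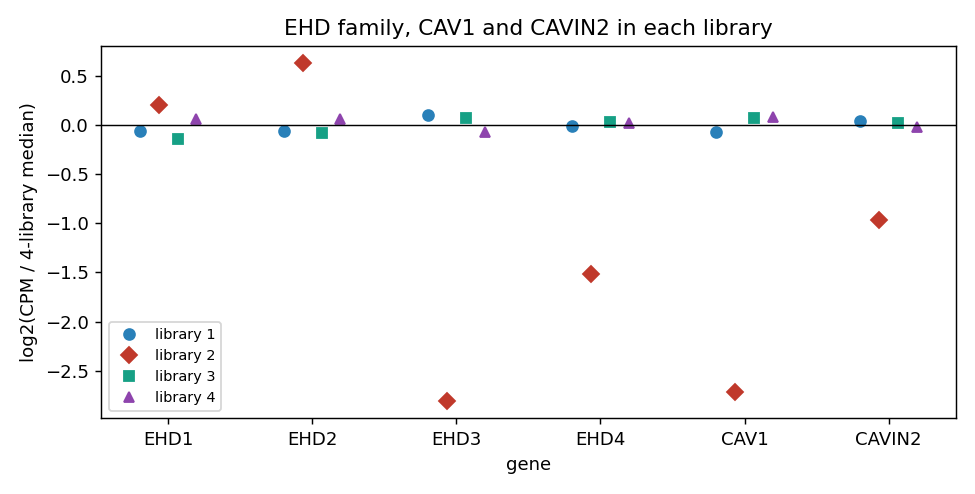
Each point is log2 of the CPM of a gene in 1 library over the median of its 4 libraries, for the 4 EHD genes, CAV1 and CAVIN2 (TMM scaled, colour and marker give the library). Library 2 lies above 0 for EHD1 (0.20) and EHD2 (0.63, both highest of the 4 with TMM, EHD1 lowest when unscaled) and below it for EHD3 (-2.81), EHD4 (-1.52), CAV1 (-2.72) and CAVIN2 (-0.97).

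PACSIN3, a relative of PACSIN2 known from muscle, measured 11.7, 35.0, 11.8 and 13.2 CPM in libraries 1 to 4, and library 2 lay apart as the highest. PACSIN1, the neuronal member, had 1 count in library 1, 5 in library 3 and none in libraries 2 and 4. CAVIN4, the cavin of muscle, matched no row. The skeletal muscle regulators MYOD1 and MYOG had 0 counts, for which the exact 95% Poisson limit over the 4 libraries together is 0.0447 CPM (counting error only).

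Genes of endothelial caveolae were near the floor. PLVAP, which forms the diaphragm across the neck of caveolae in fenestrated and other endothelium, measured 0.364, 0.185, 0.629 and 0.226 CPM in libraries 1 to 4. NOS3, the endothelial nitric oxide synthase that binds CAV1, measured 0.409, 0.679, 0.314 and 0.226 CPM. The fatty acid transporter CD36 averaged 0.309 ± 0.204 CPM (SD, n = 4). MFSD2A, a lipid transporter that restrains caveolar transport in vessels of the brain, averaged 0.292 ± 0.165 CPM. All 4 matched members of this list were below 1 CPM in every library, and their upper Poisson limits over the 4 libraries were between 0.433 and 0.547 CPM. Of all rows with a count, 64.3% were at 1 CPM or more in every library. The share below 1 CPM in every library was not computed. GPIHBP1 had no row. In adipocytes, another cell type rich in caveolae, ADIPOQ and LEP define the lineage, and here they had 4 and 2 counts in all. PLIN1, a lipid droplet protein of adipocytes, measured 4.78, 4.56, 1.80 and 0.724 CPM in libraries 1 to 4. FABP4, a fatty acid binding protein that adipocytes share with other cells, measured 12.9 to 16.7 CPM in libraries 1, 3 and 4 and 41.7 CPM in library 2.

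Genes that anchor caveolae or cut them from the membrane were expressed in 7 of 8 cases, next to 64.3% of all rows with a count. FLNA, the actin crosslinker filamin A that ties caveolae to stress fibres, measured 1063, 1186, 986 and 1118 CPM in libraries 1 to 4, with a mean of 1088 ± 84.8 CPM (SD, n = 4). DNM2, the ubiquitous dynamin, measured 87.1 ± 4.87 CPM and SRC, the kinase that phosphorylates CAV1, 22.0 ± 1.59 CPM. FLNA, DNM2 and SRC had no library apart with TMM, whereas DNM2 in unscaled CPM had library 2 apart as the lowest. FLNA was highest in library 2 with TMM but lowest there in unscaled CPM (941 against 1071 to 1203 CPM), without lying apart. ABL1, a kinase linked to caveolae through stress fibres, measured 123, 38.6, 116 and 114 CPM, with library 2 apart as the lowest. ROR1, a receptor that scaffolds CAV1 and CAVIN1, measured 9.50 CPM in library 2 and 22.7 to 25.9 CPM in the others, a gap that missed the critical ratio. ITSN1, of the same list, measured 50.5, 5.92, 51.9 and 38.6 CPM in libraries 1 to 4 and also had no library apart. On log2 against the 4-library median, library 2 was at -2.91 for ITSN1, next to -2.72 for CAV1. DNM1, the neuronal dynamin, was the member below 1 CPM in every library, at 0.612 ± 0.331 CPM.

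Flotillins, which scaffold flat membrane rafts independently of caveolins, were both expressed. FLOT1 measured 357, 1008, 366 and 392.5 CPM in libraries 1 to 4, with library 2 apart as the highest, and FLOT2 measured 98.5, 144, 108 and 109.7 CPM, with no library apart. All 11 members of the clathrin coat, the other main endocytic coat, were expressed. Of all rows with a count, 64.3% were expressed. CLTC, the heavy chain, measured 937, 173, 830 and 679.8 CPM, and its light chain CLTA measured 163, 589, 168 and 205 CPM. The log2 ratio of CLTC to CLTA was -1.77 in library 2 and between 1.73 and 2.52 in the others. CLTC was lowest and CLTA highest in library 2, as CAV1 was lowest and EHD2 highest, but of CLTC and CLTA only CLTA lay apart by the gap test. On log2 against the 4-library median, library 2 was at -2.13 for CLTC and 1.66 for CLTA. The missing call for CLTC thus does not mean a smaller fold. Among the AP2 adaptor genes, AP2M1 was highest in library 2 at 567 CPM against 301 to 326 CPM and lay apart with TMM but not unscaled. With TMM, AP2S1 was also highest there, AP2A1 lay within the others, and AP2A2 and AP2B1 were lowest. AP2B1 measured 24.1 CPM in library 2 against 109 to 165 CPM and did not lie apart. PICALM, a clathrin assembly protein, was lowest there at 106 CPM against 333 to 401 CPM and did not lie apart.

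**Figure D3:**
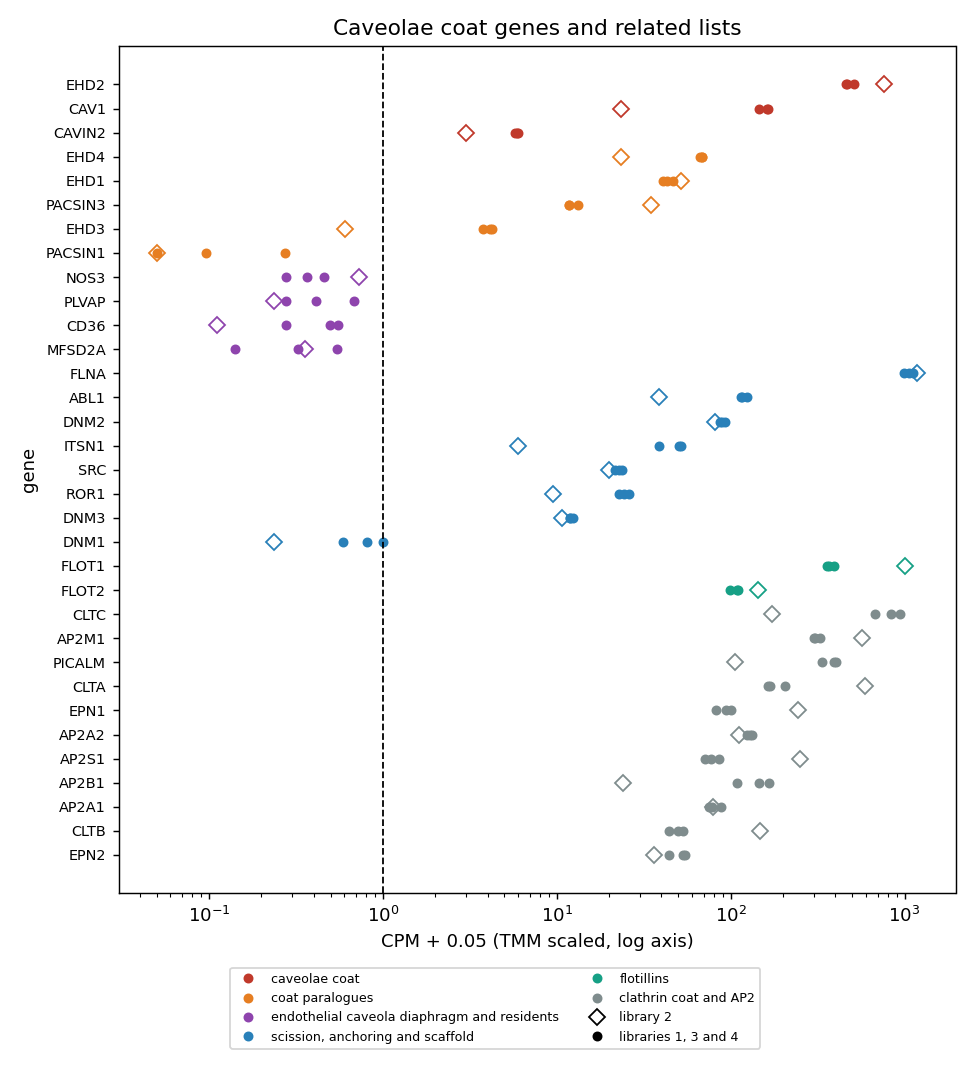
Level of each matched gene in CPM + 0.05 (TMM scaled, log axis) for the caveolae coat and 5 related lists, with open diamonds for library 2, filled circles for libraries 1, 3 and 4 and a dashed line at 1 CPM. The 3 coat genes lie right of the line in every library, the endothelial diaphragm and resident genes all lie left of it, and library 2 lies to either side of the other libraries depending on the gene.

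Of the 24 related genes that averaged 1 CPM or more, library 2 was the lowest value in 13, the highest in 10 and within the others in 1. It lay apart by the gap test in 3 as the lowest and in 7 as the highest, and no other library lay apart in any. Over all 12453 such genes it was the lowest in 47.97% and the highest in 43.8%, next to 54.2% and 41.7% of the related genes. Unscaled, these shares were 59.7% and 31.6% of all genes and 66.7% and 29.2% of the related genes, and library 2 lay apart as the lowest in 6 related genes (25%) and as the highest in 5 (20.8%), against 16.7% and 11.5% of all genes. Markers of other cell types also differed in library 2. The summed level of the 4 smooth muscle markers was 783 CPM there and 253 to 308 CPM in the others, led by TAGLN at 764 CPM, while CNN1 had 4 counts in all. The summed level of the 6 skeletal muscle markers was 50.03 CPM against 14.3 to 17.6 CPM. It was led in library 2 by TNNT1 at 36.0 CPM, while MYOD1, MYOG and CKM were at or near 0. Their part in the library 2 values of the coat genes was not tested.

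The genes most like each coat gene were those with the smallest Euclidean distance between centred log2(CPM + 0.5) profiles over the 4 libraries, among 7439 named genes averaging 10 CPM or more. For CAV1 they were JPT2 (distance 0.0544), LATS1 (0.0672) and PRKAR2B (0.0758), with LATS1 at 7.40 CPM in library 2 and 47.95 to 56.4 CPM in the others. For CAVIN2 they were ATXN2 (0.0151), POLR3B (0.0165) and NUP188 (0.0165). CAVIN2 rested on 48 counts in library 2, so its counting error is larger than these distances and their order carries little weight. The pseudocount also moved its library 2 value against the 4-library median from -0.97 to -0.86, and it weighs less on genes averaging 10 CPM or more. For EHD2 they were P3H1 (0.00529), NDUFAF4 (0.0104) and ARMC9 (0.0136), with P3H1 at 92.8 CPM in library 2 and 56.5 to 62.2 CPM in the others. These profiles are dominated by library 2, and 0 of the 3 nearest genes of any coat gene were kept when it was left out.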

How the data were processed

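Total RNA of 4 RF/6A libraries of 1 group was analysed. The authors deposited estimated counts per Ensembl gene, already rounded to whole numbers, not divided by length. Per the submitters' processing notes, the tools were Salmon and DESeq2, with no version or role stated. The genome build was not given in the sources used here, nor was the annotation release. Estimated counts share ambiguous reads among related genes. Symbols came from a table of current Ensembl identifiers (14654 of 21314 rows matched), so genes whose identifier has changed are missed.

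Counts were scaled with TMM in edgeR 4.0.16 (R 4.3.3) and given as CPM, and 3 counts correspond to 0.135 to 0.185 CPM in the libraries. Levels without library 2 keep the 4-library scaling. BCV came from all genes kept by filterByExpr (minimum count 10). The code was tested on simulated counts. Alternatives were DESeq2 1.42.0 size factors, unscaled CPM, other thresholds, pseudocounts and filters, and each library left out. Levels per coding length were planned and not computed, since no lengths were used.

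The members, lists and rule for naming genes were chosen with earlier results of these data known. The rule named the 8 coat genes, the 3 highest of each list, every list member below 1 CPM throughout, PLVAP, NOS3, CAVIN4 and the nearest 3 profiles. EHD3, ROR1, ITSN1, SRC, CLTA, AP2A1, AP2B1 and the ratios other than EHD2 to CAV1 fall outside it, chosen once their values were seen. CLTB, AP2S1, EPN1, DNM3 and AP2A2 also fall outside it and were named for their gap test calls. The rule did not cover the cell type markers.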

Additional observations from a re-analysis of the deposited data

Results flagged for a closer look

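Dixon's gap test was run on 41 values (genes, list medians and ratios), of which 17 had an outlying library. Chance alone flags roughly 1 in 20, but library 2 lay apart in 33.1% of all 12453 genes averaging 1 CPM or more, against 41.5% of these values. The sets are unlike, since the 41 values also hold genes averaging under 1 CPM, list medians and ratios. Among related genes averaging 1 CPM or more, library 2 lay apart as the lowest in 12.5% and as the highest in 29.2%. The shares of all such genes were 11.2% and 21.8%. The outlying library was library 2 in all 17, as the lowest in 6 and the highest in 11. These values share a library and are not independent, and CAV1 also enters through the coat median and the ratios to it.

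Among the coat genes, library 2 was low for CAV1 (23.4 CPM) and CAVIN2 (2.96 CPM) and high for EHD2 (759.7 CPM). Their median log2(CPM + 0.5), which is the level of CAV1, was low at 4.58. The log2 ratios to CAV1 were high there, at 5.02 for EHD2 and -2.98 for CAVIN2.

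Among related genes, library 2 was low for EHD3 (0.555 CPM), EHD4 (23.5 CPM) and ABL1 (38.6 CPM). It was high for PACSIN3 (35.0 CPM), FLOT1 (1008 CPM), CLTA (589 CPM), CLTB (148 CPM), AP2M1 (567 CPM), AP2S1 (251 CPM) and EPN1 (245 CPM), and for the median of the flotillins (8.57 log2 units). Unscaled, the calls for EHD2, AP2M1 and EPN1 were lost, and DNM2, DNM3 and AP2A2 gained a call with library 2 as the lowest.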

How the results depend on the processing

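At a fixed scaling, leaving out a library moves a mean over 4 libraries by less than their SD whatever the data. The scaling was recomputed here, which loosens that bound without making the comparison with the SD much of a test. The values without library 2 therefore matter more than that comparison. Without it and rescaled, the mean was 169.7 CPM for CAV1, 6.32 CPM for CAVIN2 and 519.6 CPM for EHD2, and the log2 ratio of EHD2 to CAV1 was 1.62. All 3 coat genes stayed expressed at a threshold of 0.5 CPM, by filterByExpr, under each scaling and without any library. At 5 CPM, 2 did, and CAVIN2 was lost. Library 2 lay apart for 2 coat genes in place of 3 with unscaled CPM and on the log2 scale. The median of the coat paralogues was 4.64 with only genes that pass filterByExpr, against 3.90, and that of the endothelial diaphragm and resident genes was -1.25 with a pseudocount of 0.1, against -0.28. Leaving out each library in turn, BCV ranged from 8.23% to 70.2% for CAV1, 15.1% to 45.98% for CAVIN2 and 7.84% to 43.3% for EHD2, lowest without library 2 in each. Expressed coat paralogues numbered 3 or 4, with EHD3 added without library 2. No paired analysis was possible because all libraries belong to 1 group.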

Other observations

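In the order of protein-coding genes of the RefSeq assembly T2T-MMU8v2.0, CAV1 lies between CAV2 and MET, and CAV2 lies between TES and CAV1. MET, a receptor tyrosine kinase, measured 255, 135, 261 and 209 CPM in libraries 1 to 4, and TES, a focal adhesion protein, measured 196, 129, 210.5 and 215 CPM. Library 2 was the lowest for both, and neither had a library apart by the gap test. NOP53, the ribosome biogenesis factor next to EHD2, measured 359, 1279, 356 and 413 CPM, with library 2 apart as the highest, as it was for EHD2. CAVIN2 lies between NABP1 and TMEFF2. NABP1 measured 4.37, 2.04, 5.08 and 3.17 CPM, lowest in library 2 as CAVIN2 was, and TMEFF2 measured 32.1, 32.9, 29.3 and 28.0 CPM, highest there, neither with a library apart. These neighbours were chosen after the values of the coat genes were seen. Over all 12453 genes averaging 1 CPM or more, library 2 was the lowest in 47.97% and the highest in 43.8%. It lay apart as the highest in 21.8%, so a direction shared with a neighbour says little.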
